A study of Mus musculus with 66 samples.

Results

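The mitochondrial ribosomal protein genes described here are the 77 mouse genes, of 24062 in the table, whose symbols begin with Mrpl or Mrps and go on with a number, pseudogene symbols left out. They were chosen by name alone and no expression value was used. From general knowledge of the ribosome's structure, 50 encode proteins of the large subunit, 26 encode proteins of the small subunit, and Mrps36 encodes a protein now known as a part of the 2-oxoglutarate dehydrogenase complex and not of the ribosome. Despite their symbols, Mrps18a and Mrps30 encode large-subunit proteins and are counted there. By ancestry, 45 have a bacterial homologue, 29 are specific to mitochondria, and 3 (Mrps18a, Mrps18b and Mrps36) were placed in neither class.

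Expression was measured by sequencing of polyadenylated RNA in 66 libraries of mouse germ cells and oocytes in 24 groups. In vivo cells came from ovaries of stella-ECFP(SC) reporter mice of strain C57BL/6 x B6D2F1, with 3 libraries each at embryonic days E14.5, E16.5 and E18.5, at postnatal days P1 and P3, and, sorted into small and large oocytes, at P4 and at P6. Cultured cells were induced from mouse embryonic stem cells (ESCs) of strain C57BL/6 X 129/SvJ through primordial germ cell-like cells (PGCLCs) sorted by the Blimp1-mVenus reporter. These were aggregated with frozen-thawed E12.5 gonadal somatic cells into reconstituted ovaries, with a Rock inhibitor for the opening 2 days, so that the cultured oocytes grew among somatic cells of another source. A culture course had 3 libraries on each of 9 days: D5, D7 and D9, then D10, D11 and D13, then D15, D17 and D20. At D21 there were 2 libraries per group: Foxo3dNES Tg cells in hypoxia (5% O2, 7% CO2, 93% N2), Foxo3dNES Tg cells in normoxia (air with 5% CO2), WT cells in hypoxia, WT cells in normoxia, and Foxo3dNES Tg and WT cells whose labels give no oxygen condition. The promoter of the transgene and the number of ESC clones behind it are not given in the sources used here. The design text calls the replicates biological without naming animals or cultures, so p-values measure the spread between libraries.

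Mitochondrial ribosomes translate the messages of mitochondrial DNA, all of which encode subunits of the respiratory chain and ATP synthase. The mitochondrial genome supplies their ribosomal RNA, while every one of their proteins is encoded in the nucleus, made in the cytosol and imported, so nuclear genes scattered over the chromosomes have to be matched in amount. Oocytes multiply their mitochondria and mitochondrial DNA during growth, and human variants in genes such as MRPS22 have been linked to ovarian insufficiency.

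The promoters of the 77 genes were compared because the factors NRF1, GABPA (an ETS factor) and YY1 are known activators of nuclear genes for mitochondrial proteins. Promoters of 300 bases (250 before to 50 after the start) were found for 68 of the genes in the RefSeq table of build GRCm38.p6. On either strand, the ETS letters CCGGAAG were in 25 of 68 (36.8%), against 17.1% of the promoters of genes tested across the in vivo and course libraries. The NRF1 letters GCATGCGC were in 8 (11.8%, against 5.40%), and the YY1 letters AAGATGGCG were in 8 (11.8%, against 2.93%). At least 1 of these motifs was in 35 of 68 (51.5%, against 23.4%). The windows below, from 120 bases before to 30 after the start, belong to 6 genes that recur in the comparisons: Mrpl23 and Mrps10, higher in small oocytes; Mrps25 and Mrps27, lower in them; and Mrpl3 and Mrps36, of which Mrpl3 was lower and Mrps36 higher at E18.5 than at E14.5 and again at P3 than at E18.5. Capitals mark a motif.
Mrpl23, chr7:142532912-142533061, plus strand: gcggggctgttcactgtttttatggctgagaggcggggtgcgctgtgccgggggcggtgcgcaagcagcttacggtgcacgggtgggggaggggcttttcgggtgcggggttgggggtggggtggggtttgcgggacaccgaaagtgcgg
Mrps10, chr17:47369077-47369226, plus strand: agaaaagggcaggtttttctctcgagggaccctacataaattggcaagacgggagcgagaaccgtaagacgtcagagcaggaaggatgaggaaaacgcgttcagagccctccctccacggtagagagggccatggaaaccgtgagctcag
Mrps36, chr13:100744630-100744779, minus strand: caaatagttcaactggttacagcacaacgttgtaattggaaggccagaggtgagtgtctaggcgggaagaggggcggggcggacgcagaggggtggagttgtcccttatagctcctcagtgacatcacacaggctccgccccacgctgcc
Mrps25, chr6:92183994-92184143, minus strand: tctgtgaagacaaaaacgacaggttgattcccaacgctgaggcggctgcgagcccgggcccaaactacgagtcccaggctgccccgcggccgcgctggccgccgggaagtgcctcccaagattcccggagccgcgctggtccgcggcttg
Mrps27, chr13:99344666-99344815, plus strand: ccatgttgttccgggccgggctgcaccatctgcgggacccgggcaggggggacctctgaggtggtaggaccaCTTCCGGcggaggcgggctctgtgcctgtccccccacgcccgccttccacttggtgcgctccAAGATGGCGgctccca
Mrpl3, chr9:105053148-105053297, plus strand: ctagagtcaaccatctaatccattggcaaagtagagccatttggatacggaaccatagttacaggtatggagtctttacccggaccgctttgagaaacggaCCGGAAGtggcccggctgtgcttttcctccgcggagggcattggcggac

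Mrps27 held an ETS motif, read on the opposite strand, and a YY1 motif, and Mrpl3 held an ETS motif. The windows of Mrpl23, Mrps10, Mrps36 and Mrps25 held none of these letters, which says nothing of whether the factors bind there, and a match is a description of the letters only. In small against large oocytes at P6, 24 of the 35 members with a motif were called higher and 5 lower, against 24 higher and 2 lower of the 33 without one (limma in RPM, where 51.3% of all genes were higher and 22.1% lower), and the difference between these counts was not tested.

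The germ cell and oocyte list (10 genes, including Ddx4, Zp3 and Gdf9) summed to 2119 RPM or more in every library, RPM being reads per 1000000 reads counted to genes. Libraries held 13.9 to 23.2 M reads for the in vivo groups, 14.7 to 22.8 M for the culture days and 4.84 to 21.3 M for the D21 groups, so that 3 reads corresponded to 0.129 to 0.619 RPM. Every member was detected in every library, the lowest single value being 5.80 RPM, and all 77 passed the filter in every comparison. Foxo3 was at 367 and 364 RPM in Tg hypoxia, 322 and 324 RPM in Tg normoxia, 128 and 123 RPM in WT hypoxia, and 88.5 and 44.8 RPM in WT normoxia libraries. Replicate 2 of WT normoxia, replicate 2 of D5 and replicate 1 of WT D21 with no oxygen label stood apart in their share of short transcripts. In them genes with transcripts under 1000 bases took 12.3%, 15.8% and 9.35% of reads, against 2.84% to 7.86% in the other libraries. Because 24 of the 77 members are that short, several limma results resting on these libraries are also given without them. The correlations over the 24 groups and the counts by rescaling, edgeR and DESeq2 are given only with them.

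In vivo, the summed level of the 77 messages was lowest in large oocytes. It was 3761 to 4945 RPM at E14.5, 3928 to 4185 at E16.5, 4505 to 5169 at E18.5, 4402 to 4616 at P1 and 4242 to 4568 at P3. Small oocytes had 4182 to 4644 RPM at P4, against 3141 to 3468 RPM in large ones, and at P6 small oocytes had 4318 to 4451 RPM, against 2940 to 3105 RPM in large ones. Small and large libraries did not overlap at either age. In culture the sum was highest at D13, with 4590 to 4868 RPM, if replicate 2 of D5 (6707 RPM, beside 3720 and 4176 RPM) is set aside, and lowest at D20, with 3035 to 3684 RPM. At D21 all libraries were above those of D20, between 4193 and 7741 RPM. RPM is a share of the messenger RNA, so in these bulk samples fewer cells of a type and less RNA per cell cannot be told apart.

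**Figure D1:**
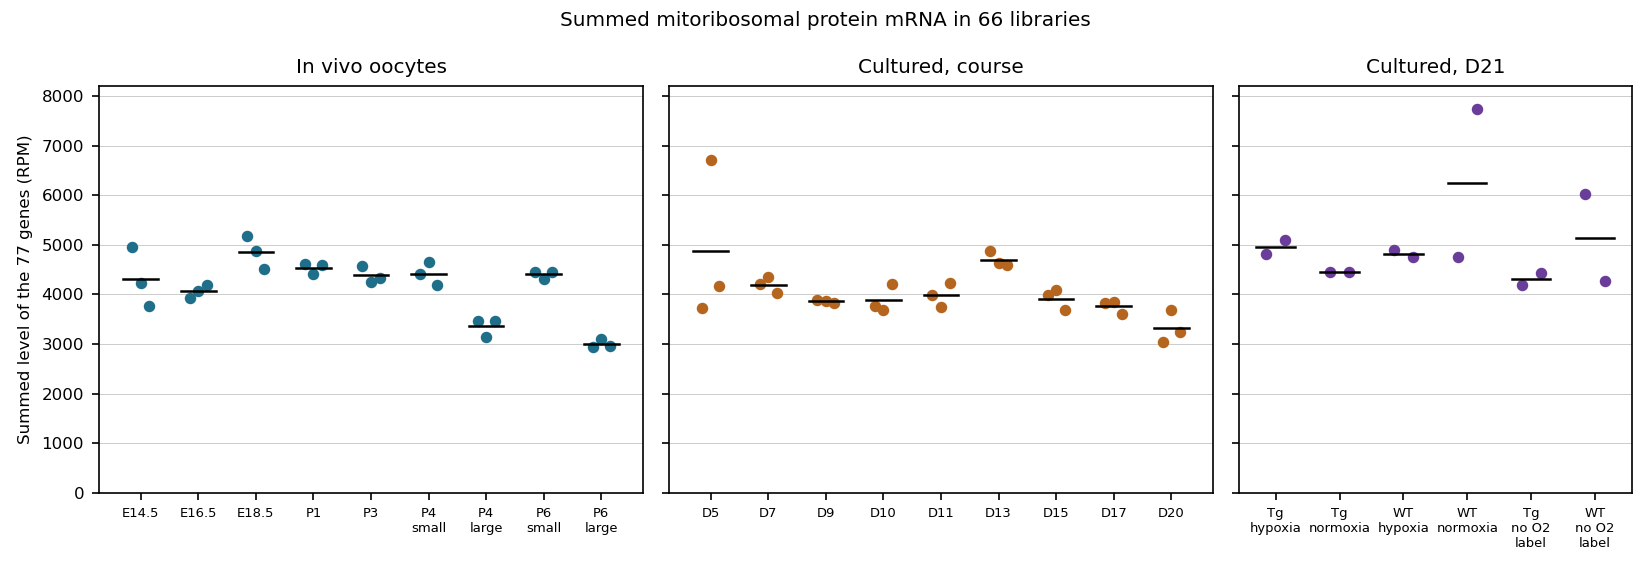
Summed level of the 77 genes (RPM, vertical axis) in each of 66 libraries (points) with the group mean (line), for in vivo oocytes, the culture course and the D21 groups. Large oocytes at P4 and P6 lie below the small ones, and replicate 2 of D5 (6707 RPM) and replicate 2 of WT normoxia (7741 RPM) lie far above their groups.

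Single genes varied more widely. Over the 24 groups, the ratio of a member's highest to its lowest group mean was 3.29 in the median, from 1.68 for Mrpl37 (70.8 RPM in P6 large oocytes to 119 RPM at D13) to 19.8 for Mrps36 (13.6 RPM at E16.5 to 268 RPM in WT normoxia at D21), and 17 members exceeded 5-fold. The size of the Mrps36 ratio depended on replicate 2 of WT normoxia, and without the 3 libraries that stood apart it was 12.3 (166 RPM in WT normoxia), the median ratio was 3.13 and 13 members exceeded 5-fold. The lowest ratio was then that of Mrpl21 (1.68). In vivo, 48 of the 77 had their lowest mean in P6 large oocytes, while 25 had their highest at E18.5 and 20 at E14.5. The correlation of a member with the median of the others over the 24 groups, which share library scaling, had a median of 0.55. It reached 0.93 for Mrps18c and 0.91 for Mrpl33 and Mrpl42, and lay below 0 for 9 members: Mrpl9 (-0.33), Mrps27, Mrps25, Mrps22, Mrpl48, Mrpl18, Mrpl34, Mrpl32 and Mrps36. Per kilobase of transcript, the level in P6 small oocytes ran from 5.71 for Mrpl19 to 193 for Mrps36, with a median of 31.9 RPM per kb.

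**Figure D2:**
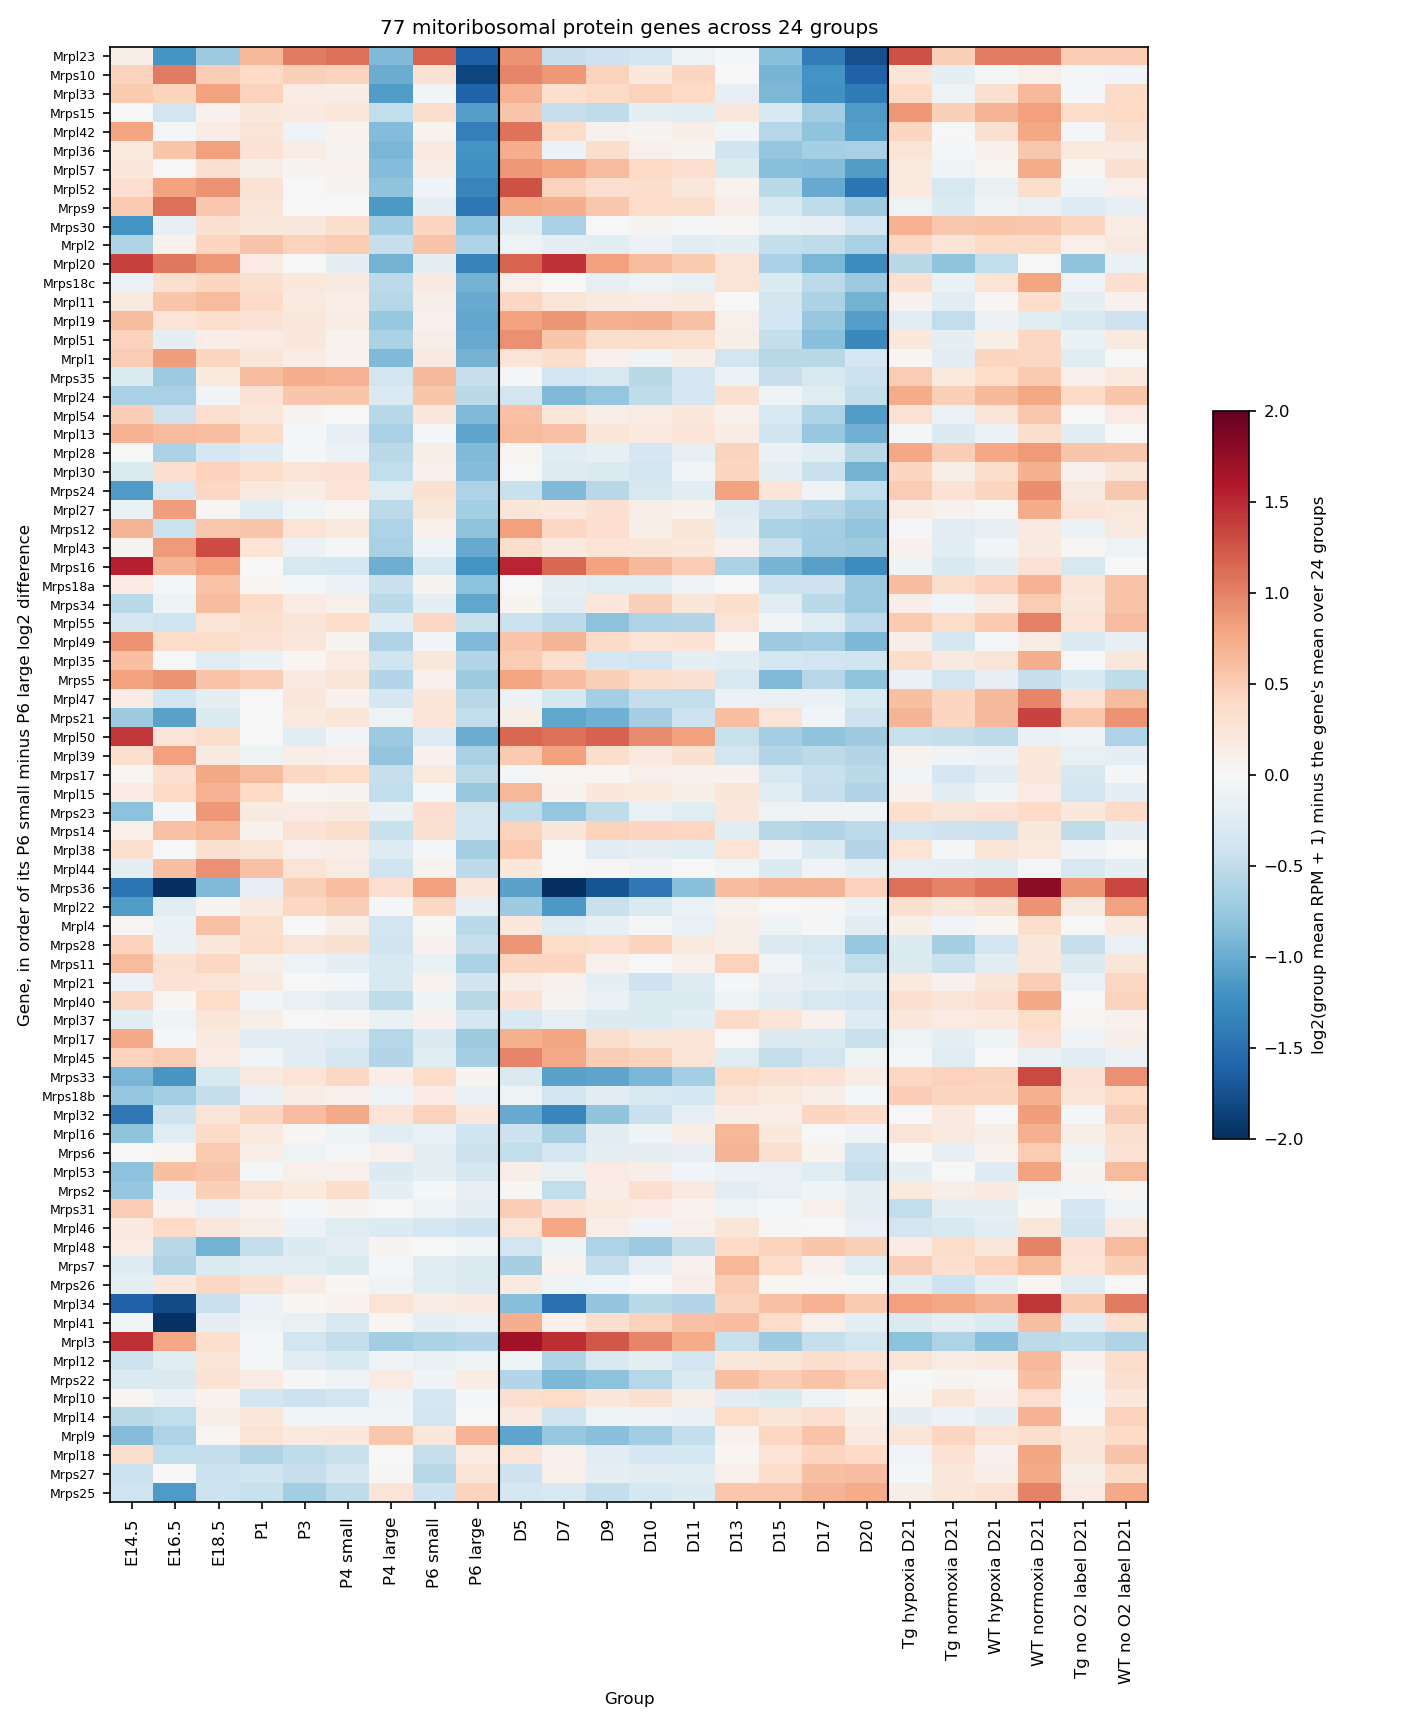
Group means of the 77 genes (rows) in 24 groups (columns), as log2(RPM + 1) minus the gene's mean over the groups, with red above and blue below that mean. Rows run by the P6 small minus large difference, from Mrpl23 (2.80) to Mrps25 (-0.86), and most rows at the top are blue in P6 large and D20 oocytes while those of Mrps25, Mrps27 and Mrpl18 at the bottom are red there.

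Small oocytes, mostly dormant and held in primordial follicles, were compared with large oocytes that had begun to grow. At P6, 57 of the 77 members were called higher in small oocytes and 7 lower (limma on log2(RPM + 1), adjusted p under 0.05), where 51.3% of all genes were called higher and 22.1% lower. At P4 the counts were 57 higher and 8 lower, where 48.7% of genes were higher and 20.5% lower. The median log2 difference of the members was 0.72 at P6 and 0.53 at P4 (all genes: 0.41 and 0.34). The 10 most abundant genes took 3.66% to 3.93% of reads in P6 small and 14.1% to 14.3% in P6 large libraries. After median-of-ratios scaling, which centres the differences of all genes near 0, the medians were 0.11 for members and 0.00 for all genes at P6, and the counts became 28 higher and 22 lower, where 34.3% of all genes were higher and 36.2% lower. The members called in one direction by limma, after rescaling, by edgeR and by DESeq2 were 28 higher (36.4%, where 33.6% of all genes were) and 7 lower (9.09%, where 21.9% were). At P4 they were 22 higher (28.6%, where 30.3% of all genes were) and 8 lower (10.4%, where 20.2% were). The shares higher were near those of all genes at both ages.

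Mrpl23, a protein at the exit tunnel of the large subunit, differed most. Its level was 107, 106 and 110 RPM in P6 small oocytes, against 13.6, 15.3 and 15 RPM in large ones. No libraries overlapped, and the log2 difference was 2.80 (SE 0.15, adjusted p = 1.63e-14, limma), or 2.21 after rescaling. At P4 it was 106, 106 and 95.1 RPM in small and 25.3, 22.6 and 27.3 RPM in large oocytes (log2 difference 1.99). Mrps10, a small-subunit protein near the decoding site, was at 32.1, 38.0 and 35.3 RPM in P6 small and at 7.54, 6.28 and 8.19 RPM in large oocytes. The groups lay far apart, with a log2 difference of 2.12 (SE 0.14, adjusted p = 4.44e-13, limma) and 1.56 after rescaling. Mrpl33, Mrps15, Mrpl42 and Mrpl36 followed with differences of 1.55, 1.45, 1.44 and 1.40. All of these were at or above 0.83 after rescaling. None of their libraries overlapped, which was a condition for naming members in each comparison. A pseudogene, Mrpl23-ps1, is annotated, and how reads shared with such copies were counted is not given in the sources used here. Exons of Mrpl36 overlap Ndufs6 on the other strand, so reads may be shared between them.

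A few members ran the other way. Mrps25, a mitochondria-specific protein of the small subunit, was at 50.8, 45.9 and 49.7 RPM in P6 small oocytes, against 87.3, 87.1 and 93.8 RPM in large ones. The small libraries were all lower, by 0.86 on the log2 scale in RPM (SE 0.09, adjusted p = 5.94e-09, limma); after rescaling the difference was -1.47. Mrps27, a small-subunit protein of the pentatricopeptide repeat family, was at 30.7, 30.6 and 33.5 RPM in small and 55.2, 54.6 and 59.7 RPM in large oocytes (log2 difference -0.82). Mrpl18 had a difference of -0.62, Mrpl9 of -0.46, Mrpl14 of -0.37 and Mrpl10, which carries the stalk of the large subunit, of -0.33. Exons of Mrps25, Mrpl18, Mrpl9 and Mrpl14 overlap genes on the other strand (Nr2c2, Tcp1, Oaz3 and Tmem63b). The libraries were directional, but the strand setting of the counting is not given in the sources used here, so reads of these pairs may not have been separated. The direction was shared by Mrps22, Mrps25, Mrps27, Mrpl9, Mrpl10 and Mrpl18 at both ages. These were 85.7% of the members lower at P6 and 75% of those lower at P4, against 84.5% and 91% over all genes. In the other direction 53 members were higher at both ages, of 57 at P6 and 57 at P4. This is 93% of each, against 87.7% and 92.4% over all genes.

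**Figure D3:**
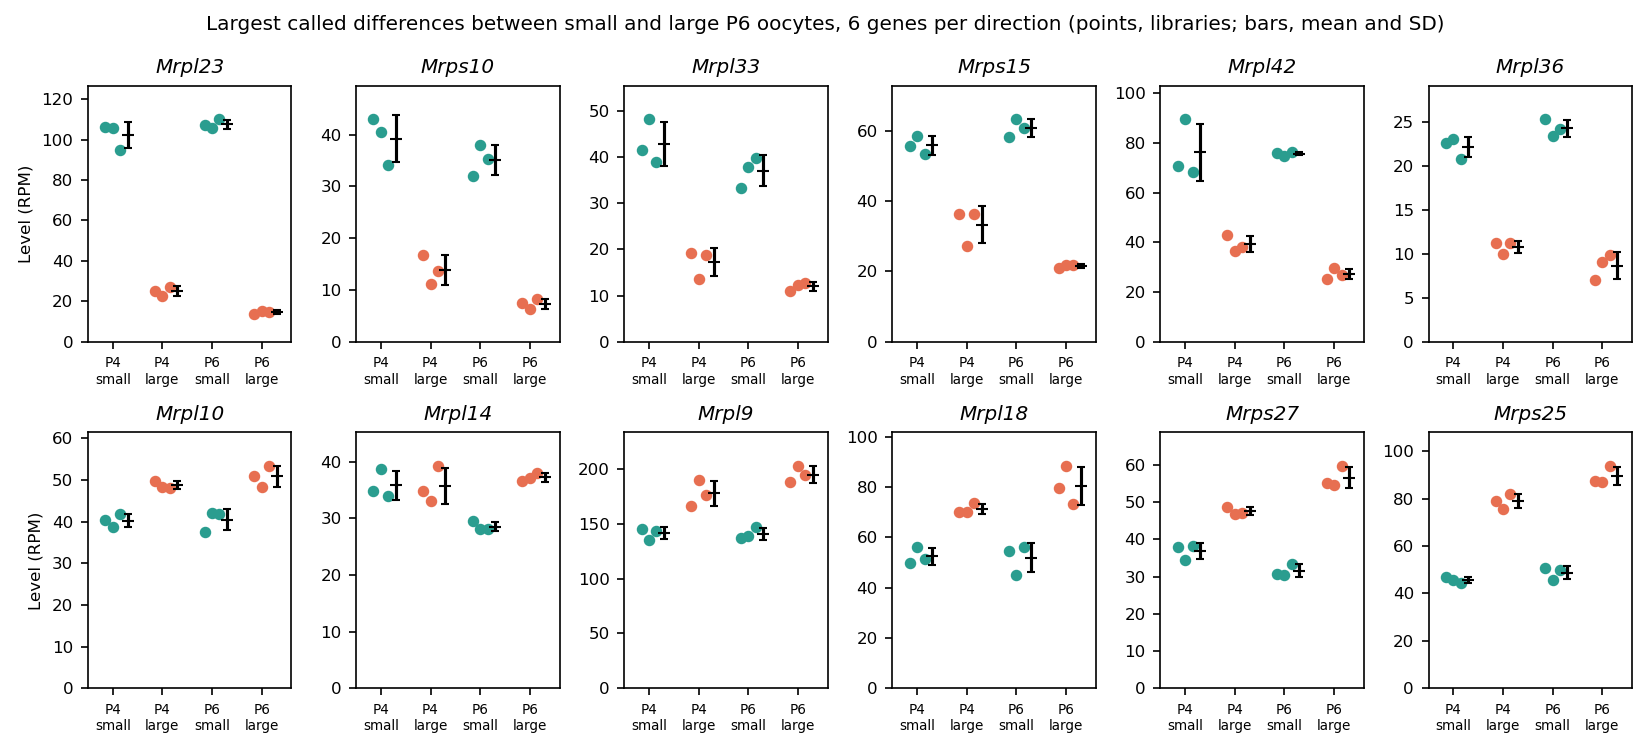
Level (RPM) in each library (points) with mean and SD (bars) for the 6 members with the largest called P6 difference in each direction, in P4 small, P4 large, P6 small and P6 large oocytes. The upper row is higher in small oocytes at both ages and the lower row is lower in them at P6, with Mrpl14 overlapping at P4.

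By subunit, 37 of 50 large-subunit and 19 of 26 small-subunit members were higher in P6 small oocytes (medians 0.77 and 0.68). Of the 45 with a bacterial homologue 34 were higher, and of the 29 specific to mitochondria 20 were. Among other mitochondrial lists, 14 of 17 genes of mitochondrial aminoacyl-tRNA synthetases were higher (Hars2 2.57, Mars2 1.68), as were 10 of 14 translation factors (Tufm, the elongation factor, 1.30), 76 of 83 nuclear genes of the respiratory chain (median 0.98) and 81 of 83 cytosolic ribosomal proteins (median 1.90). Assembly factors were mixed, with 13 higher and 6 lower of 22, the methyltransferase gene Nsun4 at -2.31. These counts are in RPM, where 51.3% of all genes were higher, and most of them depended on scaling. After rescaling, 34.3% of all genes were higher and 36.2% lower. Then 20 large-subunit members were higher and 12 lower (40% and 24%, median 0.19). Of the small-subunit members 8 were higher and 10 lower (30.8% and 38.5%, median 0.08). Of members with a bacterial homologue 20 were then higher and 11 lower, and of those specific to mitochondria 8 were higher and 10 lower. The synthetases had 8 higher and 3 lower, the translation factors 2 higher and 5 lower, the assembly factors 4 higher and 9 lower, the respiratory chain 46 higher and 8 lower (median 0.43), and the cytosolic ribosomal proteins 79 higher and 0 lower (median 1.29). Markers of stroma and theca moved along: 6 of the 7 tested of 10 were higher in small oocytes, and their sum was 6.93 to 29.3 RPM in P6 small and 1.39 to 1.83 RPM in large libraries. In the small libraries Tcf21 and Cyp17a1 were at 0. The 13 granulosa markers summed to 12.2 to 17.7 RPM in small and 6.71 to 8.80 RPM in large libraries, with Fshr at 0 in the small ones. Of the 12 granulosa markers tested, 4 were higher and 2 lower in small oocytes (3 and 2 after rescaling). The part of these somatic markers in the result was not tested.

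Older and younger oocytes of one size were compared next. In P6 against P4 small oocytes no member was called (edgeR 0, DESeq2 1 lower, 7 with an unadjusted limma p under 0.05), where 0.0455% of all genes were higher and 0.0844% lower (0.0195% lower by all of these methods). In DESeq2 0.182% of all genes were higher and 0.39% lower. In P6 against P4 large oocytes 19 members were lower and none higher (limma), where 14.0% of genes were lower and 4.60% higher. After rescaling 4 were higher and 6 lower, where 10.5% of genes were higher and 7.22% lower. The 6 that held in limma, after rescaling, in edgeR and in DESeq2 were Mrps10, Mrpl23, Mrps15, Mrps6, Mrpl42 and Mrpl38 (6.62% of all genes were lower and 3.14% higher by this measure). Mrps10 was at 7.54, 6.28 and 8.19 RPM in P6 large, against 16.7, 11.1 and 13.8 RPM in P4 large oocytes, with no overlap and a log2 difference of -0.82 (SE 0.14, adjusted p = 0.000175, limma).

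Whether the small against large difference itself grew between the ages was tested directly, a comparison added after the data were seen. It was larger at P6 than at P4 for Mrpl23, Mrps15, Mrps10 and Mrpl28 and smaller for none (limma, adjusted p under 0.05), where 5.88% of all genes had a higher and 2.64% a lower value. After rescaling 2 members were higher and 3 lower (3.17% and 5.18% of all genes). DESeq2 gave 2 higher and 4 lower (4.36% and 5.06% of all genes) and edgeR 1 of each (3.06% and 2.82%). Of 12 fits that each left out 1 library, Mrps15 was called in 12, Mrpl23 in 10, Mrps10 in 6 and Mrpl28 in 5. By limma, after rescaling, in edgeR and in DESeq2 alike it held for Mrps15 alone of the members, with 2.80% of all genes higher and 1.66% lower. For Mrps15, which binds the small subunit's ribosomal RNA, the difference grew by 0.71 on the log2 scale (SE 0.15, adjusted p = 0.00598, limma). Its levels were 58.2, 63.3 and 60.7 RPM in P6 small and 21, 22 and 21.9 RPM in P6 large oocytes, and large oocytes at P4 had 36.5, 27.3 and 36.3 RPM.

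From E14.5 to E18.5, when oocytes enter and pass through meiotic prophase, members changed in both directions, as did all genes. At E18.5, 38 members were higher and 19 lower than at E14.5, where 40.0% of all genes were higher and 30% lower (medians 0.28 and 0.14; limma). After rescaling there were 33 higher and 25 lower, where 33.7% of all genes were higher and 35.5% lower. Mrpl32, a zinc-binding large-subunit protein matured by the m-AAA protease, was at 35.6, 35.8 and 32.3 RPM at E18.5, against 9.79, 10.3 and 9.94 RPM at E14.5. The log2 difference was 1.69 (SE 0.13, adjusted p = 9.43e-12, limma), and no libraries overlapped. Mrps23 had a difference of 1.68 and Mrps24 of 1.54. Mrps30 was at 48.8, 46.9 and 48.7 RPM at E18.5 and 15.6, 17.2 and 16.4 RPM at E14.5 (1.5). Mrpl53 and Mrpl43 had differences of 1.39 and 1.25. The exons of Mrps24 overlap Urgcp on the same strand and those of Mrpl53 a predicted gene, so reads may be shared between them.

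Mrpl3, a core protein near the peptidyl transferase centre, was the member most reduced at E18.5. It was at 61.2, 52.1 and 53.0 RPM at E18.5, against 120, 123 and 126 RPM at E14.5, a log2 difference of -1.14 (SE 0.09, adjusted p = 9.75e-12, limma) with no overlap. Mrpl50, linked in humans to ovarian insufficiency, was at 31.0, 27.3 and 28.8 RPM at E18.5 and 69.8, 61.4 and 54.2 RPM at E14.5 (-1.06). Mrpl48 had a difference of -1.08, and Mrpl23, Mrpl35 and Mrpl18 ones of -0.86, -0.84 and -0.83. Of the 22 assembly factors, 14 were higher at E18.5 and 3 lower (Ngrn 2.02), while 64 of 83 cytosolic ribosomal proteins were lower (median -0.63). After rescaling these counts were 12 higher and 5 lower, and 72 lower, where 33.7% of all genes were higher and 35.5% lower. Somatic markers moved as well: 5 of the 7 stroma and theca markers tested were higher at E18.5, with sums of 31.3 to 69.8 RPM at E18.5 and 8.27 to 10.4 RPM at E14.5. Of 12 granulosa markers tested 5 were higher and 1 lower, with sums of 43.6 to 78.8 RPM at E18.5 and 28.6 to 36.6 RPM at E14.5. Of 5 endothelium markers tested 2 were higher and 1 lower, with sums of 17.85 to 36.9 RPM at E18.5 and 35.7 to 39.8 RPM at E14.5. Of 4 blood and immune markers tested 2 were higher and 2 lower. Cyp17a1 and Fshr were at 0 at E18.5, and the part of these markers in the result was not tested.

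Between E18.5 and P3, when follicles form, 13 members were higher at P3 and 38 lower, where 26.0% of all genes were higher and 32.3% lower (medians -0.26 and -0.07; limma). After rescaling 15 were higher and 30 lower, where 27.5% of all genes were higher and 29.4% lower. Mrpl23 was at 97.3, 97.6 and 100 RPM at P3, against 27.2, 36.1 and 21.6 RPM at E18.5, with no overlap and a log2 difference of 1.79 (SE 0.15, adjusted p = 5.64e-10, limma). Mrps36 was at 102, 116 and 104 RPM at P3 and 43.7, 47.0 and 32.1 RPM at E18.5 (1.38). Mrpl48, Mrps18b, Mrpl24 and Mrps33 had differences of 0.67, 0.62, 0.62 and 0.59. Among those lower, Mrpl43 was at 42.3, 39.6 and 37.9 RPM at P3 and 121, 101 and 102 RPM at E18.5 (-1.41). Its P3 levels lay within its E14.5 range of 36.2 to 52.2 RPM. Mrps16 had a difference of -1.15, Mrpl52 of -0.89, Mrpl20 of -0.86, Mrpl3 of -0.71 and Mrps23 of -0.70. Both ends of this course share the E18.5 libraries, so the opposite signs of Mrpl23, Mrpl43 and Mrps23 in the 2 comparisons are not independent. Of the stroma and theca markers 5 of 7 tested were lower at P3, with sums of 8.19 to 20.4 RPM at P3 and 31.3 to 69.8 RPM at E18.5. Of the granulosa markers 7 of 12 tested were lower, with sums of 11.3 to 31.7 RPM at P3 and 43.6 to 78.8 RPM at E18.5. Tcf21 and Cyp17a1 were at 0 at P3, and the part of these markers in the result was not tested.

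**Figure D4:**
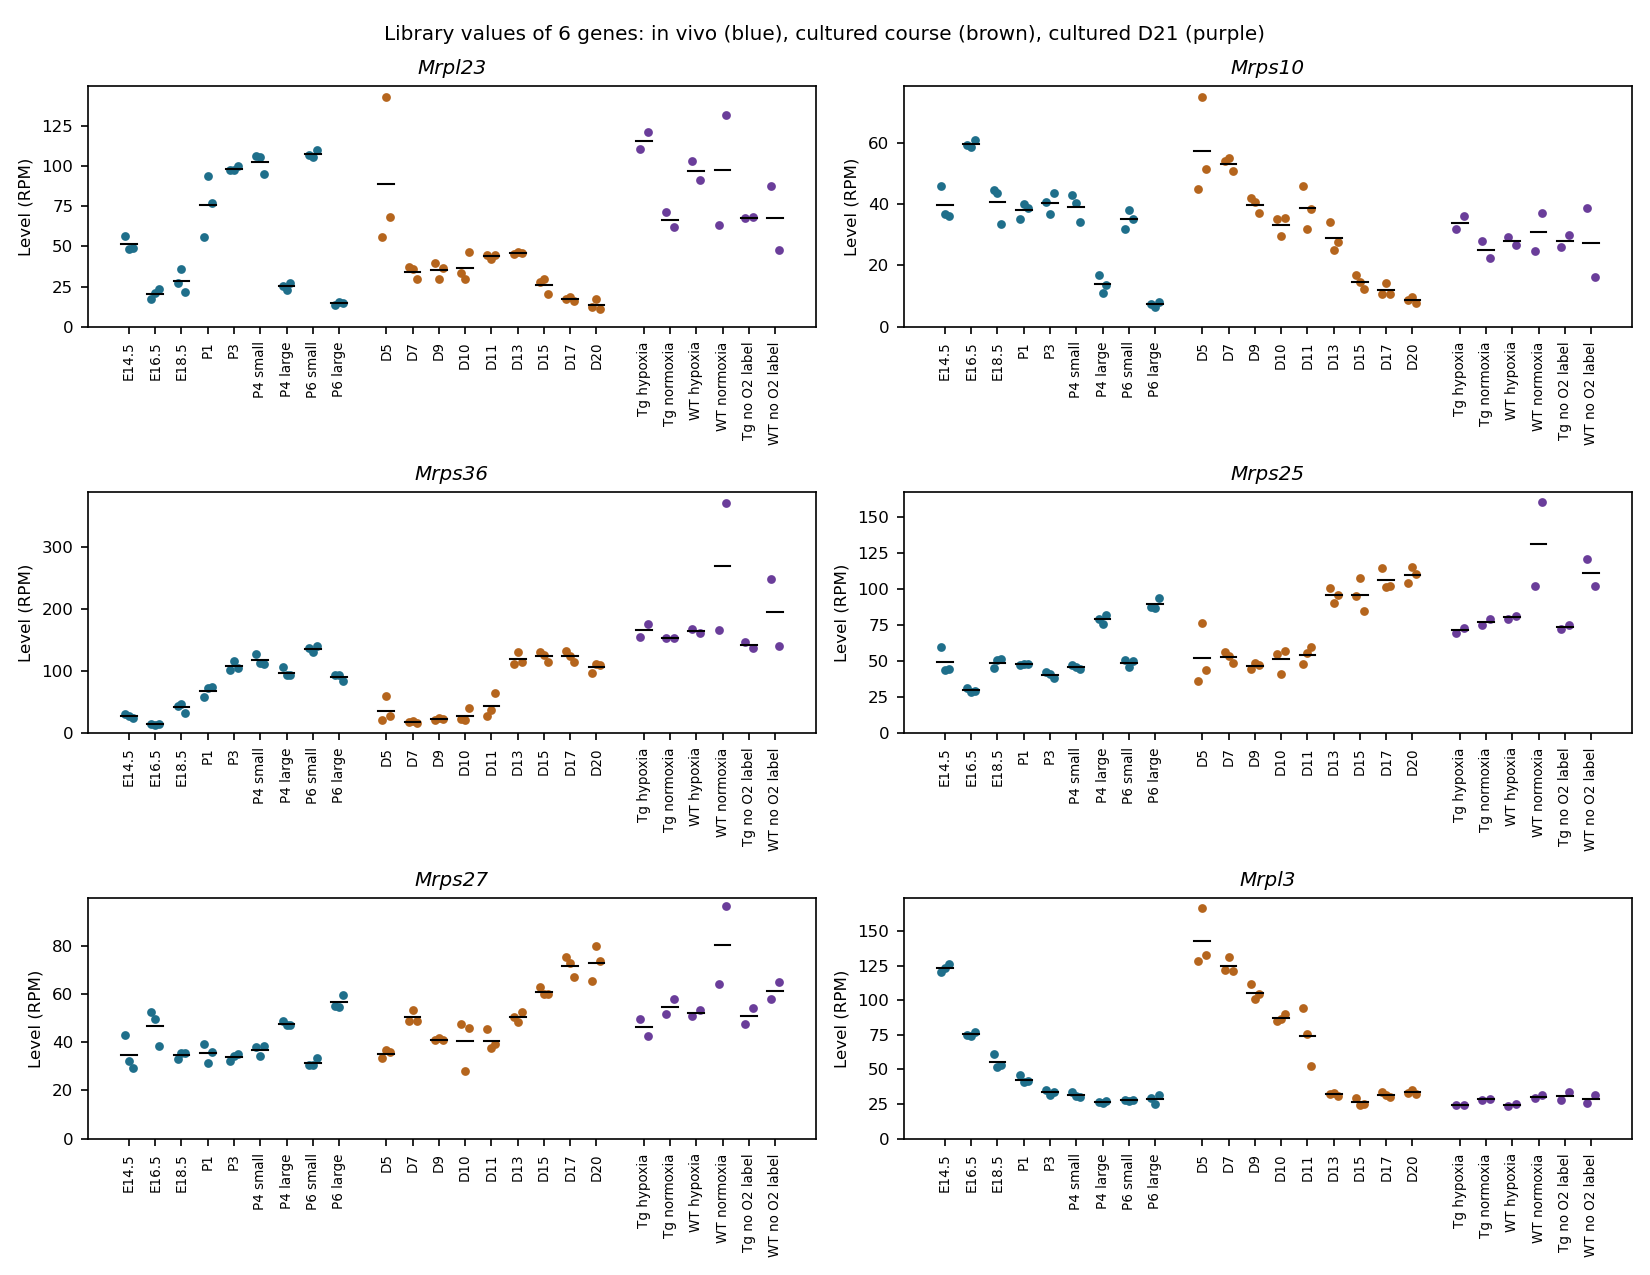
Level (RPM) in each library (points) and group mean (lines) of Mrpl23, Mrps10, Mrps36, Mrps25, Mrps27 and Mrpl3 in the in vivo groups, the culture course and the D21 groups. Mrpl23 is high from P1 in small oocytes and in all D21 groups and low in large and D20 oocytes, while Mrpl3 is highest at E14.5 and D5.

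In culture, D11 was compared with D5. The D11 libraries differed among themselves, with correlations of 0.9793, 0.9734 and 0.9687 (log2(RPM + 1)), the last the lowest within any group. The germ cell and oocyte list summed to 3582, 3260 and 6667 RPM in D11 replicates 1, 2 and 3. Replicate 3 was the outermost D11 library for Mrpl3 and Mrps7. The same D11 libraries are the reference for D20 below. At D11, 5 members were higher and 21 lower than at D5, where 31.2% of all genes were higher and 15% lower (medians -0.20 and 0.17; limma). Without replicate 2 of D5 the counts were 13 higher and 11 lower and the member median was 0.06 (all genes 0.11). After rescaling 3 members were higher and 30 lower, where 26.2% of all genes were higher and 20.4% lower. Mrpl3 was at 94.2, 75.7 and 52.5 RPM at D11, against 128, 167 and 133 RPM at D5, so its groups did not overlap with or without that library (log2 difference -0.96, SE 0.15, adjusted p = 8.95e-06, limma). Mrps7, a small-subunit protein that binds the ribosomal RNA, was higher, at 122, 106 and 166 RPM at D11 and 63.4, 91.1 and 80.4 RPM at D5 (0.73). Mrpl9 was higher by 0.55 and Mrpl38 had a difference of -0.77. Mrps16, Mrpl52, Mrpl23 and Mrpl42 had differences of -0.97, -0.91, -0.88 and -0.82, in each of which D5 replicate 2 was the highest library. Without it these were -0.62, -0.47, -0.48 and -0.41, smaller by more than 1.5 times, with adjusted p = 0.011, 0.033, 0.046 and 0.015 (limma). Somatic markers differed as well. All 9 stroma and theca markers tested were higher at D11, with sums of 189 to 1885 RPM, against 5.66 to 17.9 RPM at D5. Of 13 granulosa markers 10 were higher, with sums of 303 to 613 RPM at D11 and 38.6 to 56.0 RPM at D5. The blood and immune sum was 30.9 to 434.5 RPM at D11 and 10.5 to 13.2 RPM at D5. The endothelium sum was lower at D11, at 26.4 to 66.45 RPM, against 87.0 to 108.5 RPM at D5. The part of these markers in the result was not tested.

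From D11 to D20, when cultured oocytes grow, 11 members were higher at D20 and 40 lower, where 22.5% of all genes were higher and 55.1% lower (medians -0.39 and -0.66; limma). The direction of the whole list depended on scaling, since after rescaling 32 were higher and 18 lower (member median 0.23, all genes -0.17), where 34.4% of all genes were higher and 40.3% lower. Called in the same direction by limma, after rescaling, by edgeR and by DESeq2 were 11 higher (14.3%, where 22.2% of all genes were) and 18 lower (23.4%, where 38.4% were). Mrps10 was at 8.62, 9.57 and 7.85 RPM at D20, against 46.1, 31.9 and 38.3 RPM at D11. The log2 difference was -2.03 (SE 0.18, adjusted p = 2.51e-10, limma), with no overlap. Mrpl33, Mrpl20, Mrps16, Mrpl19 and Mrpl52 had differences of -1.83, -1.81, -1.74, -1.71 and -1.68. On the other side Mrps36 was at 95.9, 112 and 109 RPM at D20 and 26.9, 36.7 and 64.1 RPM at D11 (1.38). Mrps25 was at 104, 115 and 110 RPM at D20 and 47.7, 55.4 and 59.8 RPM at D11 (1.01). Mrpl34, Mrpl48, Mrps33 and Mrps27 were higher by 1.09, 0.94, 0.84 and 0.83. The granulosa sum was 10.8 to 13.4 RPM at D20, against 303 to 613 RPM at D11. For stroma and theca the sums were 1.79 to 3.33 RPM at D20 and 189 to 1885 RPM at D11, and for blood and immune 1.83 to 2.70 and 30.9 to 434.5 RPM. The endothelium sum was 47.2 to 48.9 RPM at D20 and 26.4 to 66.45 RPM at D11. The germ cell and oocyte list was at 23360 to 30320 RPM at D20, against 3260 to 6667 RPM at D11. The part of these lists in the differences was not tested.

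D20 oocytes were set against small and against large in vivo oocytes, with age, strain and source differing at once. Against P6 small oocytes, 9 members were higher at D20 and 48 lower, where 23.4% of all genes were higher and 43.4% lower (medians -0.55 and -0.27; limma), and after rescaling 21 were higher and 23 lower, where 33.9% of genes were higher and 30.2% lower. Against P6 large oocytes, 6 were higher at D20 and 1 lower, where 9.62% of genes were higher and 4.59% lower (medians 0.10 and 0.05). Mrpl23 was at 12.2, 17.1 and 10.8 RPM at D20, against 107, 106 and 110 RPM in P6 small oocytes. No library overlapped, and the log2 difference was -2.94 (SE 0.21, adjusted p = 8.14e-17, limma). Mrps10, Mrps15, Mrpl51, Mrpl52 and Mrpl33 had differences of -1.90, -1.49, -1.41, -1.40 and -1.38. Mrps27 was at 65.5, 79.8 and 73.9 RPM at D20 and 30.7, 30.6 and 33.5 RPM in P6 small oocytes (1.18), and Mrps25 was higher by 1.16, Mrpl18 by 0.86 and Mrps22 by 0.53. The same D20 libraries stand in both comparisons.

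By limma, after rescaling, in edgeR and in DESeq2 alike, 4 members were higher at D20 than in P6 large oocytes (4.88% of all genes were) and 1 lower (4.33% were). Mrps9 was at 31.1, 42.8 and 27.4 RPM at D20, against 18.3, 20.4 and 20.6 RPM in P6 large oocytes (log2 difference 0.72, SE 0.14, adjusted p = 0.000153, limma). Mrpl1 and Mrpl45, which anchors the ribosome at the inner membrane, were higher by 0.61 and 0.56, and Mrpl48 by 0.52. None of these libraries overlapped. Mrpl9 was at 134, 148 and 136 RPM at D20 and 188, 203 and 194 RPM in P6 large oocytes (-0.48). Mrpl36 and Mrps30 were called by limma (0.55 and 0.43) but not by edgeR (adjusted p = 0.119 and 0.0647).

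**Figure D5:**
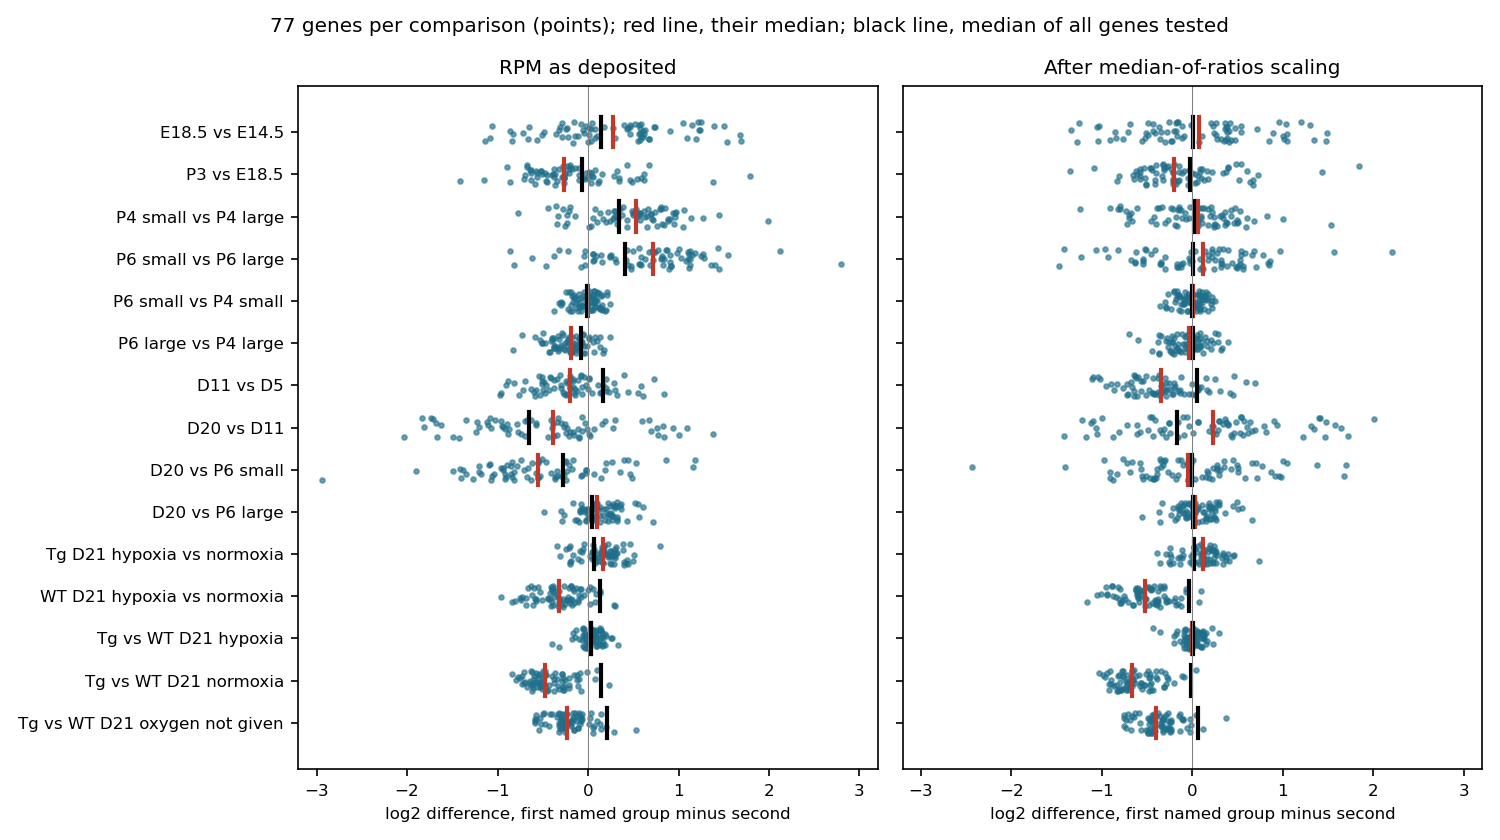
Log2 difference (horizontal axis, first named group minus second) of the 77 genes (points) in each of 15 comparisons, from RPM as deposited (left) and after median-of-ratios scaling (right), with the median of the 77 (red line) and of all genes tested (black line). The P6 small against large points spread from -0.86 to 2.80 around 0.72 on the left and are centred at 0.11 on the right.

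At D21 the study asked what low oxygen and a transgenic Foxo3 do to the cultured oocytes. In WT cells, 5 members were lower in hypoxia than in normoxia and none higher, where 6.55% of all genes were lower and 15.9% higher (medians -0.32 and 0.14; limma). The 5 were Mrpl32, Mrpl48, Mrpl18, Mrps25 and Mrps22. Mrpl48 was at 133 and 131 RPM in hypoxia, against 180 and 270 RPM in normoxia, and Mrps25 was at 79.1 and 81.4 RPM in hypoxia, against 102 and 161 RPM in normoxia. Their log2 differences were -0.73 (SE 0.18, adjusted p = 0.0196, limma) and -0.67 (SE 0.20, adjusted p = 0.0363, limma). In all 5 the libraries of the groups did not overlap, a condition for naming them, and replicate 2 of WT normoxia was the highest. Without replicate 2 of WT normoxia no member was called and the member median was 0.04. No member was called without replicate 1 or without replicate 2 of WT hypoxia either, and without replicate 1 of WT normoxia there were 42 lower and 1 higher, where 12.1% of all genes were lower and 29.4% higher. Granulosa markers moved with oxygen, 7 of the 11 tested of 13 being lower in hypoxia, with sums of 21.2 to 29.4 RPM in hypoxia and 115 to 268 RPM in normoxia. Their part in the result was not tested.

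In Foxo3dNES Tg cells no member was called between hypoxia and normoxia (limma 0, edgeR 0, DESeq2 0, and 1 with an unadjusted limma p under 0.05), where 0.153% of all genes were higher and 0.869% lower (medians 0.17 and 0.07). When only these groups entered the fit, 18 members were higher in hypoxia and 1 lower, where 16.4% of all genes were higher and 12.1% lower. Of the 11 granulosa markers tested 4 were lower in Tg hypoxia and 0 higher, with sums of 18.6 to 33.1 RPM in Tg hypoxia and 122 to 196 RPM in Tg normoxia, and their part in these values was not tested. Mrpl23 was at 110 and 121 RPM in Tg hypoxia, against 71.3 and 61.8 RPM in Tg normoxia, a difference of 0.79 on the log2 scale, the largest among the 77. Between Tg and WT cells in hypoxia no member was called (limma 0, edgeR 0, DESeq2 0, and 1 with an unadjusted limma p under 0.05), where 0.00695% of genes were higher in Tg and 0% lower, and the member median was 0.03 (range -0.40 to 0.33). In normoxia the member median of Tg against WT was -0.48 (all genes 0.15) and 74 of 77 values were negative. No member was called there by limma or edgeR, where 0.00695% of genes were higher and 0% lower in limma, and 14 members had an unadjusted limma p under 0.05. DESeq2 called 15 members lower, where 6.3% of all genes were higher and 5.25% lower in DESeq2. Without replicate 2 of WT normoxia the median was -0.08, and without replicate 1 it was -0.82 with 55 members lower, where 9.64% of genes were lower and 26.3% higher.

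The difference between the oxygen effects in Tg and WT cells was tested as an interaction. No member was called (limma 0, edgeR 0, DESeq2 0, 2 with an unadjusted limma p under 0.05), where 0% of all genes were higher and 0% lower. The member median was 0.51 (all genes -0.12), or 0.12 without replicate 2 of WT normoxia. Without replicate 1 it was 0.87, and 24 members were then higher and 0 lower, where 3.88% of all genes were higher and 12.3% lower. For the Tg and WT groups with no oxygen label no member was called either (limma 0, edgeR 0, DESeq2 1 lower, 5 with an unadjusted limma p under 0.05), where 6.25% of genes were higher in Tg and 0.605% lower in limma. In DESeq2 7.14% of genes were higher in Tg and 4% lower. The member median there was -0.23, or 0.01 without replicate 1 of WT. Across the 12 D21 libraries Mrpl23 was at 47.9 to 132 RPM and Mrps10 at 16.4 to 38.6 RPM, against 10.8 to 17.1 RPM and 7.85 to 9.57 RPM at D20. The course and D21 libraries were fitted separately, and this difference was not tested.

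Members with near relatives or with a known part in disease had levels of their own. The 3 Mrps18 paralogues encode proteins that sit at different sites, Mrps18a in the large and Mrps18b and Mrps18c in the small subunit. Mrps18c averaged 59.5 ± 2.91 RPM in P6 small and 26.6 ± 2.30 RPM in large oocytes (SD, n = 3 each), and Mrps18a averaged 56.5 ± 5.13 RPM in P6 small and 30.5 ± 3.15 RPM in large oocytes (SD, n = 3 each). Mrps18b averaged 59.1 ± 1.03 RPM in P6 small and 47.9 ± 4.18 RPM in large oocytes (SD, n = 3 each), and its log2 difference of 0.30 in RPM became -0.30 after rescaling. In the fetus Mrps18b averaged 37.6 ± 3.36 RPM at E18.5 and 30.3 ± 3.07 RPM at E14.5, and it was higher at P3 than at E18.5 (0.62), while Mrps18a was lower (-0.58).

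Mrps12, at the decoding centre, averaged 29.1 ± 1.31 RPM in P6 small and 15.2 ± 2.13 RPM in large oocytes (log2 difference 0.91, or 0.33 after rescaling). Mrpl12, a stalk protein known to bind the mitochondrial RNA polymerase, averaged 62.8 ± 5.36 RPM in P6 small and 65.9 ± 1.28 RPM in large oocytes; it was not called in RPM (-0.07) and was lower in small ones after rescaling (-0.68). Mrpl44, whose protein has a ribonuclease fold, had its highest mean at E18.5 (93.8 ± 14.1 RPM) and averaged 51.4 ± 3.93 RPM in P6 small and 33.7 ± 2.00 RPM in large oocytes. Mrps22 averaged 76.6 ± 1.09 RPM in P6 small and 89.6 ± 6.68 RPM in large oocytes, and 111 ± 8.23 RPM at D20, against 66.3 ± 18 RPM at D11. Mrps7 averaged 106 ± 5.96 RPM in P6 small and 102 ± 8.35 RPM in large oocytes, which overlapped, and was highest at D13 (198 ± 7.58 RPM). Its exons overlap Gga3 and Mif4gd on the other strand. Mrpl50 averaged 18.9 ± 0.46 RPM in P6 small and 10.9 ± 0.59 RPM in large oocytes, both under its E14.5 mean of 61.8 ± 7.81 RPM.

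Mrpl3 and Mrps36 ran in opposite directions from E16.5 to P3, though both had lower means at E16.5 than at E14.5. Mrpl3 averaged 123 ± 2.77 RPM at E14.5, 75.5 ± 1.29 at E16.5, 55.4 ± 5.02 at E18.5, 42.8 ± 2.72 at P1 and 33.4 ± 1.70 at P3. In culture it averaged 143 ± 21.0 RPM at D5, 74.2 ± 20.9 at D11 and 33.6 ± 1.52 at D20. Its last levels, 27.9 ± 0.63 RPM in P6 small and 28.8 ± 3.17 RPM in large oocytes, overlapped. Mrps36 averaged 27 ± 3.58 RPM at E14.5, 13.6 ± 1.21 at E16.5, 40.9 ± 7.84 at E18.5, 68.0 ± 8.62 at P1 and 107 ± 7.57 at P3. It averaged 135 ± 5.17 RPM in P6 small and 90 ± 5.02 RPM in large oocytes, a difference of 0.58 in RPM that was -0.02 after rescaling. Its annotated copies Mrps36-ps1, Mrps36-ps2 and Mrps36-ps3 may share its reads.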

How the data were processed

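The values are RPM (reads per 1000000) per gene in 1 table of 66 libraries that the authors deposited. Per the labels' protocols, polyadenylated RNA was made into directional NEBNext Ultra libraries with 12 cycles of PCR. Per the submitters' processing notes, TopHat2, Bowtie2 2.0.13, featureCounts 1.5.1, R 3.4.4 and build mm10 were used; their order, the annotation and the strand setting are not given in the sources used here. Every value was a whole number of reads times a library constant (100% of values within 0.01 read), so the counts behind the deposited RPM were recovered for edgeR and DESeq2.

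Genes with a group mean of at least 1 RPM in 1 group or more were tested with limma 3.58.1 (R 4.3.3), with a trend on log2(RPM + 1), two-sided, 1 mean per group, and Benjamini-Hochberg adjustment over all genes tested at 0.05. Separate fits took 27 in vivo libraries (15401 genes), 27 course libraries (16065), both together for D20 against P6 (16452), and 12 D21 libraries (14392). Fold changes are on this scale and understate those of low genes. Rescaling used median-of-ratios size factors. Alternatives were edgeR 4.0.16 (quasi-likelihood, TMM), DESeq2 1.42.0, a pseudocount of 0.25, no filter, the compared groups alone, a replicate block and leaving out each library. Named members are up to 6 in each direction with the largest called differences and groups that do not overlap. A panel of 12 was described regardless of value. Non-overlap of the named members follows from this choice and is no added support, and its share over all genes is not given. Lists of other mitochondrial genes and cell markers come from general knowledge. The members and lists were chosen with earlier results of these data known, though the symbol rule for the members used no expression value. No libraries of a group were alike within counting noise. Lengths and overlaps are from GENCODE M21. Further named members have overlapping exons, so their reads may be shared. Mrps6 overlaps Slc5a3 and Gm49711 on the same strand. On the other strand Mrpl43 overlaps Twnk, Mrpl24 Rrnad1, Mrpl48 Rab6a, Mrpl19 Gcfc2, Mrps30 B430218F22Rik and Mrpl44 Wdfy1. A pseudogene, Mrpl48-ps, is annotated as well. The scripts were tested on simulated data.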

Additional observations from a re-analysis of the deposited data

Results flagged for a closer look

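In 4 members the difference between small and large oocytes was larger at P6 than at P4 by a test of that difference (limma, Benjamini-Hochberg adjusted over all genes), a comparison added after the data were seen. These were 5.19% of the members, near the share of all genes, of which 5.88% had a higher and 2.64% a lower value. After median-of-ratios scaling 2 members were higher and 3 lower (3.17% and 5.18% of all genes), and edgeR gave 1 of each. The increase on the log2 scale was 0.809 for Mrpl23 (adjusted p = 0.021), 0.71 for Mrps15 (adjusted p = 0.00598), 0.673 for Mrps10 (adjusted p = 0.0318) and 0.568 for Mrpl28 (adjusted p = 0.0275). After median-of-ratios scaling the adjusted p was 0.0477 for Mrpl23, 0.0196 for Mrps15, 0.0764 for Mrps10 and 0.102 for Mrpl28. In 12 fits that each left out 1 library, Mrps15 was called in 12, Mrpl23 in 10, Mrps10 in 6 and Mrpl28 in 5.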

How the results depend on the processing

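In the order median-of-ratios scaling, edgeR and DESeq2, members higher in small oocytes numbered 22, 23 and 22 at P4 and 28, 31 and 28 at P6, and members lower 20, 18 and 20 at P4 and 22, 19 and 22 at P6. Over all genes the shares higher were 31%, 33.4% and 32% at P4 and 34.3%, 37% and 35.5% at P6. The shares lower were 33.2%, 30.6% and 32.5% at P4 and 36.2%, 33.9% and 35.9% at P6. P6 small against large reversed for Mrps18b (-0.303, -0.243 and -0.312) and Mrps7 (-0.551, -0.488 and -0.557), and, with scaling and with DESeq2, for Mrps36 (-0.0237 and -0.0246) and Mrpl44 (-0.0087 and -0.00772). In the same order, P6 against P4 large gave 4, 1 and 5 higher and 6, 6 and 6 lower; D11 against D5 gave 3, 3 and 3 higher and 30, 32 and 36 lower; D20 against D11 gave 32, 34 and 31 higher and 18, 18 and 18 lower; D20 against P6 small gave 21, 20 and 20 higher and 23, 25 and 20 lower; WT hypoxia against normoxia gave 9, 12 and 21 lower; and the P6 minus P4 size difference gave 2, 1 and 2 higher and 3, 1 and 4 lower. DESeq2 alone gave 1 lower in P6 against P4 small (0.39% of all genes) and 15 in Tg against WT normoxia (5.25%). It also gave 1 lower in Tg against WT with no oxygen label (4%). With no filter, 3 were lower in WT hypoxia and 1 in the size difference. With only the compared groups fitted, E18.5 against E14.5 gave 12 lower (29.7% of all genes) and P6 against P4 large 1 higher (11.1%). D11 against D5 gave 0 higher and 2 lower (14% and 3.63% of all genes), and D20 against P6 large 13 higher (20.4%). WT hypoxia gave 0 lower (0.0728% of all genes), and Tg hypoxia against normoxia 18 higher and 1 lower (16.4% and 12.1%). The size difference gave 13 higher and 3 lower (12.8% and 5.68% of all genes). The causes were not tested.

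Leaving out 1 library gave 5 to 9 lower at P4, 8 to 23 lower in P6 against P4 large, 2 to 13 higher and 11 to 31 lower in D11 against D5, 3 to 6 higher in D20 against P6 large, 0 to 1 higher and 0 to 42 lower in WT hypoxia, 0 to 55 lower in Tg against WT normoxia, 0 to 1 lower in Tg against WT with no oxygen label, 0 to 24 higher in the interaction and 1 to 10 higher in the size difference. Deviations of same-numbered libraries from their group means had correlations from -0.267 to 0.196. These low values cannot exclude a shared source, and with 2 libraries per D21 group the 2 deviations mirror each other. Whether the numbers pair libraries is not given in the sources used here. With the replicate block 57 members were higher and 7 lower in P6 small oocytes, and no call of the 132 named results changed. The pseudocount changed none of them either. At D21 each group had 2 libraries, of 4.84 to 8.72 M reads with no oxygen label and 15.9 to 21.3 M in the others. The Mrps36 ratio without the 3 libraries that stood apart (12.3) and the subunit and list counts after rescaling were added after the data were seen.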
